A study of Mus musculus with 4 samples.

Results

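ATP-binding cassette (ABC) transporters of families A to G were described in mouse liver as every gene whose single symbol, in the annotation of the array, begins with Abca to Abcg and a number. The rule found 65 of the 22690 probe sets of the array, which stand for 36 of 12393 genes that had at least 1 probe set to themselves. Of these 36 genes, 25 were measured, which means that the brightest probe set of the gene exceeded 16 units on at least 1 array. The study compared male mice aged 12 to 20 weeks of 2 genotypes, PPARα-null mice (substrain 129S4/SvJae) and wild-type mice (129S1/SvImJ; labelled 129Sv), each either fasted for 24 hours or fed and killed as the dark period ended. Liver RNA of 5 mice per group, the number in the series' design text, was pooled and measured on 1 Affymetrix MOE430A array, giving 4 arrays, no replicates and no p-values. Values are GCRMA intensities in units, differences are on the log2 scale, and a gene was called higher or lower when 2 arrays differed by 1.5-fold or more, the threshold of the study for pooled RNA. A difference between the genotypes cannot be told apart from a difference between the substrains, and in whole liver RNA fewer cells of a type cannot be told apart from less RNA per cell.

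ABC transporters are membrane proteins that hydrolyze ATP to move lipids, bile acids, drugs, heme precursors or peptides across a membrane. In hepatocytes those of the canalicular membrane make bile, with separate pumps for bile salts, phosphatidylcholine, cholesterol, conjugates and drugs, while those of the sinusoidal membrane return bile acids and lipids to blood. Members of family D carry activated fatty acids into peroxisomes, some members of family B lie in mitochondria, and families E and F are soluble proteins that work on ribosomes. PPARα is a nuclear receptor activated by fatty acids that governs much of fatty acid catabolism in fasted liver.

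Across the series, the arrays had medians of 14.4 to 14.6 units, and 23.0% to 23.7% of probe sets reached 64 units. Ppara itself read 16.3 units in fasted null against 755 units in fasted wild-type liver, and 104 units in fed null against 583 units in fed wild-type liver. Both null pools were the lower ones, as labelled, and whether the probes lie within the disrupted region is not known here. All 5 hepatocyte markers examined were measured and none was called in any comparison. Where a gene had several probe sets that never fell under 64 units, their log2 differences scattered with an SD of 0.30 in the fasted and 0.19 in the fed comparison of genotypes, and of 0.37 in null and 0.24 in wild-type liver for the response to fasting (861 genes). This SD is a spread between probes, not between mice, and it is the only measure of error that the arrays offer.

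Promoter windows are shown for 2 pairs of genes on which the results turn. The divergent pair Abcg5 and Abcg8, both lower in null liver, is shown by the Abcg8 window alone. The bile pumps Abcb11 and Abcb4, on different chromosomes, responded to fasting in opposite directions. The sequences are those of RefSeq (GRCm38.p6), run 5′ to 3′ along the gene, and hold 300 bases that end shortly after the start site. Windows were found for 27 of the 36 genes. Abcg5 and Abcg8 are transcribed away from each other from start sites 110 bases apart, so their windows share 209 bases. Abcg8 has a second annotated start site, which is not shown. The Abcg8 window lies at chr17:84682871-84683170 on the plus strand. Capitals mark TATAAA, which reads on the opposite strand, that of Abcg5. It lies 31 to 26 bases upstream of the Abcg8 start site shown, and 84 to 79 bases upstream of the Abcg5 start site. TATAAA on either strand occurs in 13.6% of 32851 windows.
Abcg8: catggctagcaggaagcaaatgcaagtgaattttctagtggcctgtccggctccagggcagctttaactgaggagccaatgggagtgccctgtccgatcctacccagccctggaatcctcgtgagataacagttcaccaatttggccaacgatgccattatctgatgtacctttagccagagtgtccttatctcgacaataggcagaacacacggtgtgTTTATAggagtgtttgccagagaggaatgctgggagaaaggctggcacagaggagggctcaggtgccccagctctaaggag

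The Abcb11 window lies at chr2:69342567-69342866 on the minus strand. Capitals mark the closest match to an inverted repeat of nuclear receptor hexamers spaced by 1 base (AGGTCA, any base, then TGACCT, searched on both strands), the arrangement known to be bound by the bile acid receptor FXR. The match differs from the motif by 1 letter, T4C, counted from the 5′ end of the motif, and lies 63 to 51 bases upstream of the start site. It contains the single hexamer AGGTCA, read on the opposite strand, which on its own occurs in 16.3% of all windows. At most 1 mismatch to the inverted repeat was found in 0.0822% of all windows. The Abcb4 window lies at chr5:8893471-8893770 on the plus strand and came no closer to the inverted repeat than 4 mismatches, so nothing in it is capitalized. These matches are letters in a window and no binding was measured.
Abcb11: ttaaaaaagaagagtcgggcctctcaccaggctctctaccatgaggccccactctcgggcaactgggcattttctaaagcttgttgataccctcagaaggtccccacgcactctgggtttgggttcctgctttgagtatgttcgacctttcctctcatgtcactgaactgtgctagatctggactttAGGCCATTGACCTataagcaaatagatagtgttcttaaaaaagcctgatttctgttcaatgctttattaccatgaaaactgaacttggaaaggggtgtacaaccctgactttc
Abcb4: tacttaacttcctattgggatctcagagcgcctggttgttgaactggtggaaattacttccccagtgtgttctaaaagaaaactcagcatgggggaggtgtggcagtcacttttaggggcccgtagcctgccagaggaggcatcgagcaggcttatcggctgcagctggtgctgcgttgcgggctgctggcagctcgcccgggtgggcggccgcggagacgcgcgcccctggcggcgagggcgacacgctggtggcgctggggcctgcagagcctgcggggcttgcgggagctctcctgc

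**Figure D1:**
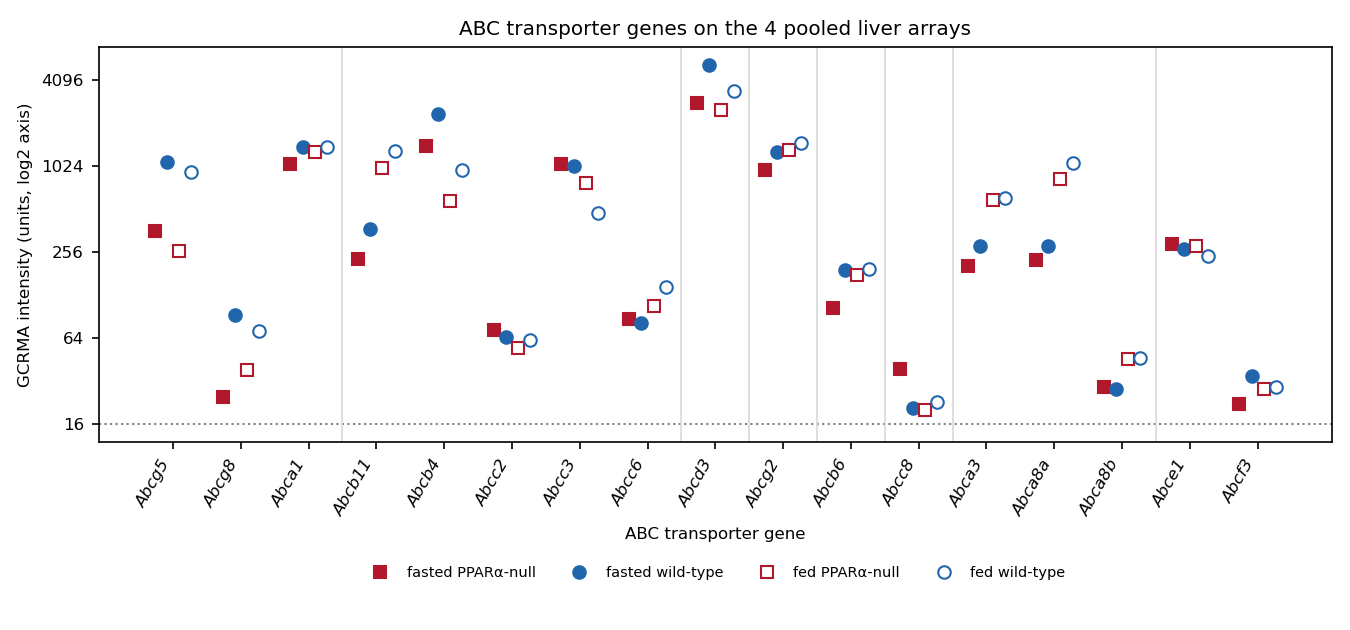
GCRMA intensity on a log2 axis of the 17 ABC transporter genes that reached 64 units on at least 1 array or were called in at least 1 comparison, with 1 point per pooled array (filled for fasted, open for fed, squares for PPARα-null, circles for wild-type), grouped by role between vertical lines. The dotted line is 16 units, and both Abcg5 squares (362 and 263 units) lie below both of its circles (1099 and 932 units).

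**Figure D2:**
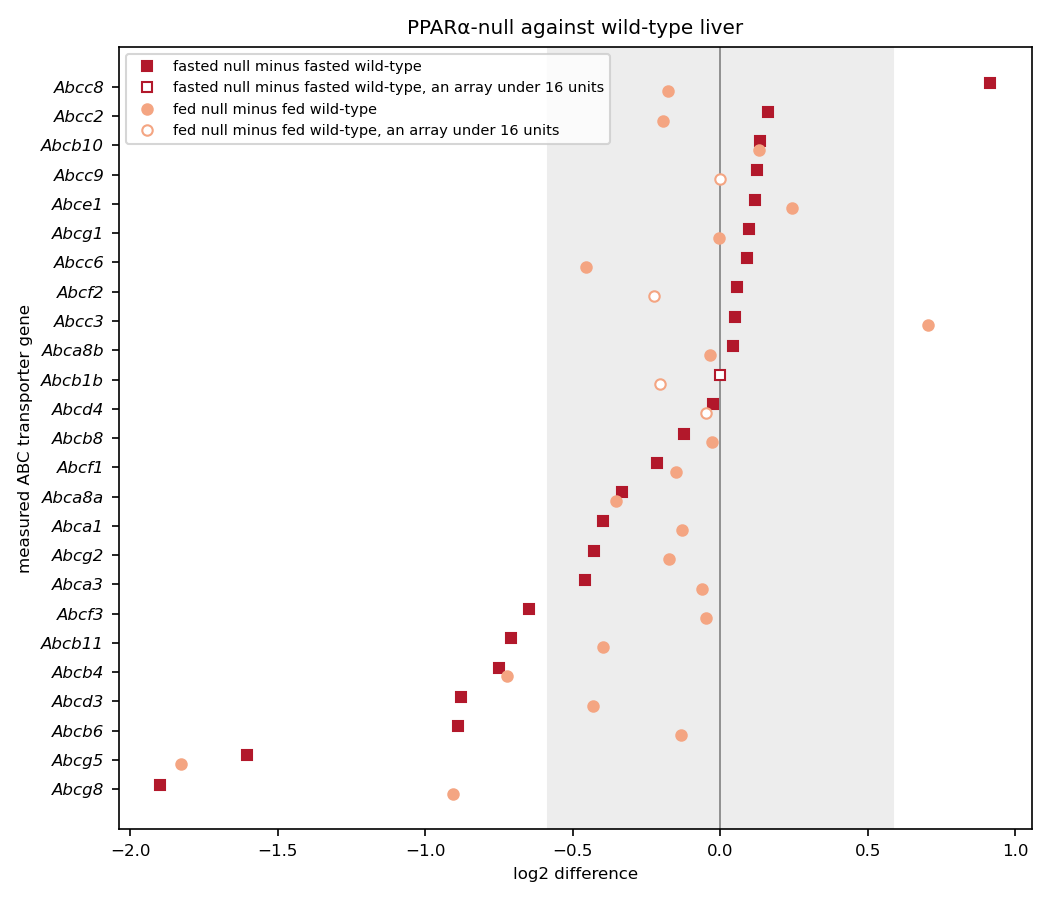
Log2 difference of PPARα-null minus wild-type liver for the 25 measured ABC transporter genes in the fasted (dark squares) and fed state (light circles), ordered by the fasted difference, with 1 pooled array per group. The grey band holds differences under 1.5-fold and open symbols have an array under 16 units. Abcg5 lies at -1.60 and -1.83, Abcg8 at -1.90 and -0.91, and Abcb4 at -0.75 and -0.72.

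Over the whole family, the comparison of fasted null with fasted wild-type liver called 7 of 25 measured members lower and 1 higher. Of all 6947 measured genes 22.2% were called in this comparison, 13.6% lower and 8.58% higher, against 32% of the members. Each array enters 2 of the 4 comparisons. The lower members were Abcg5, Abcg8, Abcb6, Abcd3, Abcb4, Abcb11 and Abcf3. The median of the members was -0.12, against -0.01 over all measured genes. Centring each array on its bright probe sets raised the fasted differences between genotypes by 0.15 and the fasting responses in null liver by 0.13, above the floor. With it the member median was 0.00, and 5 members were lower and 1 was higher, while over all genes the lower share of the calls was 44.9% in place of 61.4%.

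In the fed state 3 members were lower in null liver, Abcg5, Abcg8 and Abcb4, and Abcc3 was higher. Of all measured genes 4.49% were called in this comparison, 2.38% higher and 2.12% lower, against 16% of the members, which is 4 genes. The 3 lower members were also called lower in the fasted state, and the 2 comparisons share no array. The overlap of these comparisons over all measured genes was not computed, so these shared calls are not shown to be particular to the family. Abcg5 and Abcg8 are divergent neighbours, and both Abcg8 calls were lost with a higher floor. The median was -0.15 over members and 0.00 over all measured genes.

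**Figure D3:**
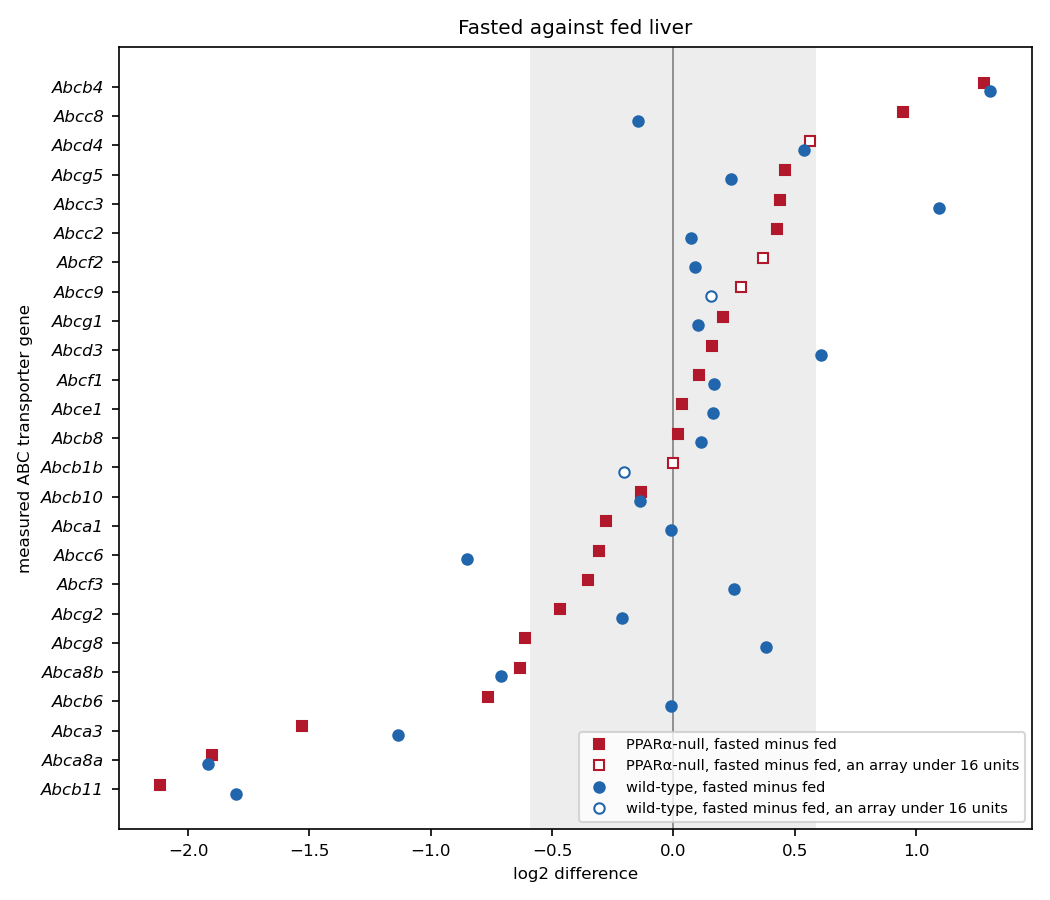
Log2 difference of fasted minus fed liver for the 25 measured ABC transporter genes in PPARα-null (squares) and wild-type mice (circles), ordered by the null response, with 1 pooled array per group. The grey band holds differences under 1.5-fold and open symbols have an array under 16 units. Abcb11, Abca8a and Abca3 lie low and Abcb4 high in both genotypes, whereas Abcc8 lies at 0.95 in null and at -0.15 in wild-type mice.

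With fasting, 2 members were higher (Abcb4 and Abcc8) and 6 lower in null liver, and 3 were higher (Abcb4, Abcc3 and Abcd3) and 5 lower in wild-type liver. The percentage called was 32% of the members in each genotype. Of all measured genes, 30.4% were called in null liver, 12.4% higher and 18% lower, which is near the member share. In wild-type liver 16.5% were called, 8.2% higher and 8.29% lower. The split in null liver depended on the scaling, with 4 higher and 4 lower members after centring and 3 higher and 4 lower after quantile normalization. Over all measured genes, the lower share of the calls in null liver was 59.1%, and 47.6% after centring. The genotypes shared 5 called members of 8 each, and Abcb11, Abca8a, Abca3 and Abca8b were lower and Abcb4 higher in both. The overlap over all measured genes was not computed, so the shared calls are not shown to be particular to the family.

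Among the sterol transporters, 2 of 4 measured genes were lower in null liver and 0 higher, with a median of -1.0 in the fasted and -0.52 in the fed state. Over all measured genes 13.6% were lower in the fasted and 2.12% in the fed comparison. The 2 lower genes are the divergent neighbours Abcg5 and Abcg8. Abcg5 and Abcg8 encode the subunits of the heterodimer that secretes cholesterol and plant sterols into bile, and both were lower in null liver in both feeding states. Abcg5 read 362 units in fasted null against 1099 units in fasted wild-type liver, and 263 units in fed null against 932 units in fed wild-type liver. Both null pools were thus below both wild-type pools, and Abcg5 was 3.04-fold lower in the fasted and 3.55-fold lower in the fed state. Abcg8 read 25.0 units in fasted null against 93.1 units in fasted wild-type liver, and 38.2 units in fed null against 71.5 units in fed wild-type liver. It was 3.72-fold lower in the fasted and 1.87-fold lower in the fed state, and it was dimmer on the array than the threshold of 64 units in both null pools. With a floor at 64 units the Abcg8 differences were -0.54 and -0.16 on the log2 scale, both short of the threshold. Both genes were among those the study displayed from these very arrays, and their direction is therefore no independent evidence.

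Fasting did not move the pair together in null liver. In wild-type liver the fasted minus fed difference was 0.24 for Abcg5 and 0.38 for Abcg8, both short of the threshold. In null liver it was 0.46 for Abcg5 and -0.61 for Abcg8, which for Abcg8 is 1.53-fold lower in fasted than in fed liver. That call rested on 25.0 and 38.2 units and was lost with quantile normalization (-0.53) and with centring of the arrays (-0.48), while Abcg5 reached 0.59 and the threshold with centring.

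The remaining sterol transporters did not reach the threshold in any comparison. Abca1, which hands cholesterol and phospholipid to apolipoprotein A-I, read 1059 units in fasted null against 1394 units in fasted wild-type liver, and 1282 units in fed null against 1403 units in fed wild-type liver. Its fasted difference between genotypes was -0.40 in the brightest probe set and -0.52 and -0.54 in the dimmer ones, so all 3 probe sets were below zero and none passed -0.58. Abcg1, which passes cholesterol to high-density lipoprotein and is best known from macrophages, lay between 29.3 and 33.8 units on all arrays. Abca7 and Abcg4 were not measured. Of macrophage markers, 8 of 11 measured genes were higher in null than in wild-type liver after fasting, with summed levels of 1212 against 590 units. The share higher over all measured genes was 8.58%. The part of macrophages in the Abca1 and Abcg1 values was not tested.

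Of 5 measured exporters of bile acids, bile lipids and organic anions, 2 were lower and 0 higher in null liver after fasting, with a median of 0.05, and 1 was lower and 1 higher in the fed state, with a median of -0.40. Over all measured genes 13.6% were lower and 8.58% higher after fasting, and 2.12% lower and 2.38% higher in the fed state. Abcb11, the bile salt export pump, and Abcb4, the phosphatidylcholine floppase that protects the bile duct from bile salts, were both lower in null than in wild-type liver after fasting. Abcb11 read 229 units in fasted null against 375 units in fasted wild-type liver, and 993 units in fed null against 1308 units in fed wild-type liver. It was 1.64-fold lower in the fasted state, a call that centring of the arrays took to -0.56 and short of the threshold, and its fed difference was -0.40. Abcb4 read 1419 units in fasted null against 2385 units in fasted wild-type liver, and 585 units in fed null against 964 units in fed wild-type liver. It was 1.68-fold lower in the fasted and 1.65-fold lower in the fed state (-0.75 and -0.72 on the log2 scale). With centring the fasted Abcb4 difference was -0.60, just past the threshold.

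The same pumps went opposite ways with fasting, in both genotypes. Abcb11 was 4.33-fold lower in fasted than in fed null liver and 3.49-fold lower in fasted than in fed wild-type liver, so both fasted pools lay below both fed pools. Abcb4 was 2.43-fold higher in fasted than in fed null liver and 2.47-fold higher in fasted than in fed wild-type liver. Over the settings tried, the log2 response of Abcb11 stayed between -2.11 and -1.98 in null and between -1.83 and -1.80 in wild-type liver, and that of Abcb4 between 1.28 and 1.41 in null and between 1.28 and 1.31 in wild-type liver. Abcb4 lies beside Abcb1a and Abcb1b on chromosome 5. Abcb1a was not measured and Abcb1b exceeded 16 units on the fed wild-type array alone, so these neighbours could not be set beside it.

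Among the multidrug resistance proteins of family C, Abcc3 was called in the fed comparison of genotypes and for fasting in wild-type liver. Abcc3 exports bile acid and bilirubin conjugates across the sinusoidal membrane, and read 1058 units in fasted null against 1022 units in fasted wild-type liver, and 780 units in fed null against 479 units in fed wild-type liver. Fed wild-type liver was therefore the low pool. Abcc3 was 1.63-fold higher in fed null than in fed wild-type liver and 2.14-fold higher in fasted than in fed wild-type liver, while the genotypes differed by 0.05 in the fasted state. In null liver its response to fasting was 0.44 and short of the threshold.

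Abcc6, a liver transporter whose loss causes ectopic mineralization, showed its difference in wild-type liver. It read 86.9 units in fasted null against 81.5 units in fasted wild-type liver, and 107 units in fed null against 147 units in fed wild-type liver. It was 1.80-fold lower in fasted than in fed wild-type liver, against a difference of -0.31 in null liver. Abcc2, the canalicular pump for bilirubin conjugates, lay between 54.7 and 73.5 units and was not called in any comparison. Abcc4, a basolateral bile acid exporter, was not analysed here.

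The peroxisomal transporter Abcd3 was lower in fasted null liver. Abcd3, also known as PMP70, imports long and branched chain acyl-CoA and bile acid intermediates into peroxisomes. It read 2851 units in fasted null against 5239 units in fasted wild-type liver, and 2550 units in fed null against 3438 units in fed wild-type liver. Both null pools were below both wild-type pools. Abcd3 was 1.84-fold lower in the fasted state, with a fed difference of -0.43. It was 1.52-fold higher in fasted than in fed wild-type liver, a difference that became 0.58 on the log2 scale and just short of the threshold with centring, and its response in null liver was 0.16. Abcd2, a peroxisomal relative that prefers very long chain fatty acids, was not measured. Abcd4, a family D member that serves cobalamin export from lysosomes, reached 24.0 units at most and was under 16 units in fed null liver. Its fasting responses were 0.56 in null liver, after the floor, and 0.54 in wild-type liver.

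Genes that act beside Abcd3 also differed between the fasted pools. Of 8 measured genes of peroxisomal membrane insertion and acyl-CoA oxidation, 6 were lower in null than in wild-type liver after fasting and 0 were higher, with a median of -1.44. The shares over all measured genes were 13.6% lower and 8.58% higher. All 8 were higher in fasted than in fed wild-type liver, against 1 higher and 2 lower in null liver. Over all measured genes 8.2% were higher with fasting in wild-type liver, and 12.4% were higher and 18% lower in null liver. Pex19, the chaperone that delivers membrane proteins such as Abcd3 to peroxisomes, read 94.7 units in fasted null against 213 units in fasted wild-type liver.

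Few drug efflux transporters were measured. Abcg2, which exports drugs, urate and porphyrins at the canaliculus, read 965 units in fasted null against 1297 units in fasted wild-type liver, and 1332 units in fed null against 1501 units in fed wild-type liver. All its differences were below zero and short of the threshold, the largest being -0.47 between fasted and fed null liver. Of the 7 genes of this list with a probe set, Abcb1a, Abcc1, Abcc5, Abcc10 and Abcg3 did not exceed 16 units in their brightest probe set on any array. Abcb1b reached 18.4 units in the fed wild-type pool and lay between 11.6 and 14.9 units in the others. For these genes the arrays give a bound and no comparison.

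In mitochondria, Abcb6 was lower in fasted null liver than in the other pools. Abcb6, a transporter linked to porphyrin uptake, read 105 units in fasted null against 194 units in fasted wild-type liver, and 178 units in fed null against 195 units in fed wild-type liver. Only the fasted null pool was low. Abcb6 was 1.85-fold lower than in fasted wild-type and 1.70-fold lower than in fed null liver, while its response to fasting in wild-type liver was -0.01. Abcb8 and Abcb10 of the inner membrane were within 0.14 log2 units of zero in every comparison, at 50.4 to 55.7 and 16.9 to 20.3 units.

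Of the other lipid transporters of family A, all 3 measured genes were lower with fasting in both genotypes and none was called between genotypes, with median responses of -1.53 in null and -1.13 in wild-type liver. Over all measured genes 18% were lower with fasting in null and 8.29% in wild-type liver. Abca3, which loads phospholipid into surfactant bodies in lung, read 205 units in fasted null against 282 units in fasted wild-type liver, and 592 units in fed null against 618 units in fed wild-type liver. It was 2.89-fold lower in fasted than in fed null liver and 2.19-fold lower in fasted than in fed wild-type liver. Of its 2 dimmer probe sets, 1 had responses of -1.04 in null and -0.77 in wild-type liver, also past the threshold, and the other was under 16 units on all arrays. With the mean of its probe sets in place of the brightest, the response of Abca3 was -0.76 in null and -0.69 in wild-type liver, smaller and still past the threshold.

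Abca8a and Abca8b are neighbours on chromosome 11 in a cluster of related genes. Abca8a read 225 units in fasted null against 283 units in fasted wild-type liver, and 839 units in fed null against 1071 units in fed wild-type liver. It was 3.73-fold lower in fasted than in fed null liver and 3.78-fold lower in fasted than in fed wild-type liver. Abca8b read 29.4 units in fasted null against 28.5 units in fasted wild-type liver, and 45.5 units in fed null against 46.6 units in fed wild-type liver. Its responses of -0.63 in null and -0.71 in wild-type liver were in the same direction and smaller, and the null call was lost with quantile normalization (-0.54) and centring (-0.50). Short probes may not keep such similar copies fully apart, so the separate values of Abca8a and Abca8b are uncertain. Abca2 and Abca4 were not measured, and the other genes of the cluster were not analysed here.

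The last members are a channel regulator and the soluble proteins. Abcc8, the sulfonylurea receptor of the ATP-sensitive potassium channel in pancreatic beta cells, was the only member higher in null than in wild-type liver after fasting, at low values. It read 39.0 units in fasted null against 20.7 units in fasted wild-type liver, and 20.3 units in fed null against 22.9 units in fed wild-type liver. It was 1.89-fold higher than in fasted wild-type and 1.93-fold higher than in fed null liver. Its single probe set carries a suffix that marks possible matches to several transcripts. Markers of the exocrine pancreas were summed at 123 units in fasted null, 117 units in fasted wild-type, 916 units in fed null and 642 units in fed wild-type liver. Most of the fed sums came from Cela1, at 745 units in fed null and 552 units in fed wild-type liver. The part of pancreatic cells in the Abcc8 values was not tested. Abcc9, its relative in muscle, lay between 12.8 and 19.4 units.

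Soluble family members moved little. Abce1, which recycles ribosomes, read 292 units in fasted null against 269 units in fasted wild-type liver, and 285 units in fed null against 241 units in fed wild-type liver. It was not called, although its dimmer probe set, the only one without a suffix, had a response to fasting of 0.67 in null liver on 50.4 and 31.6 units. Abcf3 read 22.2 units in fasted null against 34.8 units in fasted wild-type liver, and 28.3 units in fed null against 29.3 units in fed wild-type liver. It was 1.57-fold lower in the fasted null pool, a call on low values that quantile normalization (-0.58, just short of the threshold) and centring (-0.50) took away. Abcf1 and Abcf2 lay under 64 units and were not called.

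The response to fasting in null minus that in wild-type liver reached 1.5-fold for 5 of 25 measured members. The share of all measured genes that reached it was not computed, so the count describes nothing particular to the family. With 1 array per group the difference in response was not tested. It was 1.09 for Abcc8, -0.99 for Abcg8, -0.75 for Abcb6, -0.65 for Abcc3 and -0.60 for Abcf3. Of these, Abcc8, Abcg8 and Abcf3 did not exceed 93.1 units on any array. After centring 2 members were above and 2 below the threshold, and after quantile normalization 2 above and 3 below. The value was -0.45 for Abcd3, -0.03 for Abcb4 and 0.02 for Abca8a.

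Nuclear receptors that control ABC transporter genes differed between the fasted pools in both directions, with 2 of 7 measured genes lower in null liver (Nr1h4 and Ppara itself) and 2 higher (Nr1i2 and Nr0b2). The shares over all measured genes were 13.6% lower and 8.58% higher. Nr1h4, which encodes the bile acid receptor FXR that induces Abcb11, read 153 units in fasted null against 1017 units in fasted wild-type liver, and 530 units in fed null against 589 units in fed wild-type liver. Its response to fasting was -1.79 in null and 0.79 in wild-type liver, and Abcb11 was lower with fasting in both. Whether the Nr1h4 level bears on that of Abcb11 was not tested, and receptor activity was not measured. Nr0b2, the corepressor gene that FXR induces, was 2.88-fold higher in null than in wild-type liver after fasting. Nr1h3, which encodes the oxysterol receptor LXRα that induces Abcg5, Abcg8 and Abca1, read 35.5 units in fasted null against 43.3 units in fasted wild-type liver, and 56.0 units in fed null against 49.9 units in fed wild-type liver. It was not called between genotypes. With fasting it was 1.58-fold lower in null liver (-0.66) and not called in wild-type liver (-0.20).

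Of the 5 measured genes of bile acid uptake and the canalicular membrane, 2 were higher in null than in wild-type liver after fasting and 0 lower. The shares over all measured genes were 8.58% higher and 13.6% lower. Slco1a1 and Slco1a4, which take up organic anions from blood, were 1.78-fold and 1.74-fold higher. The bile acid uptake gene Slc10a1 had a difference of -0.43. Of the 7 measured partners of sterol transport, Npc1, which releases cholesterol from lysosomes, was the only one called between genotypes, and read 380 units in fasted null against 753 units in fasted wild-type liver, and 243 units in fed null against 461 units in fed wild-type liver. Of the ABC genes filed under other symbols, Tap1 read between 11.3 and 16.9 units and was not called.

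**Figure D4:**
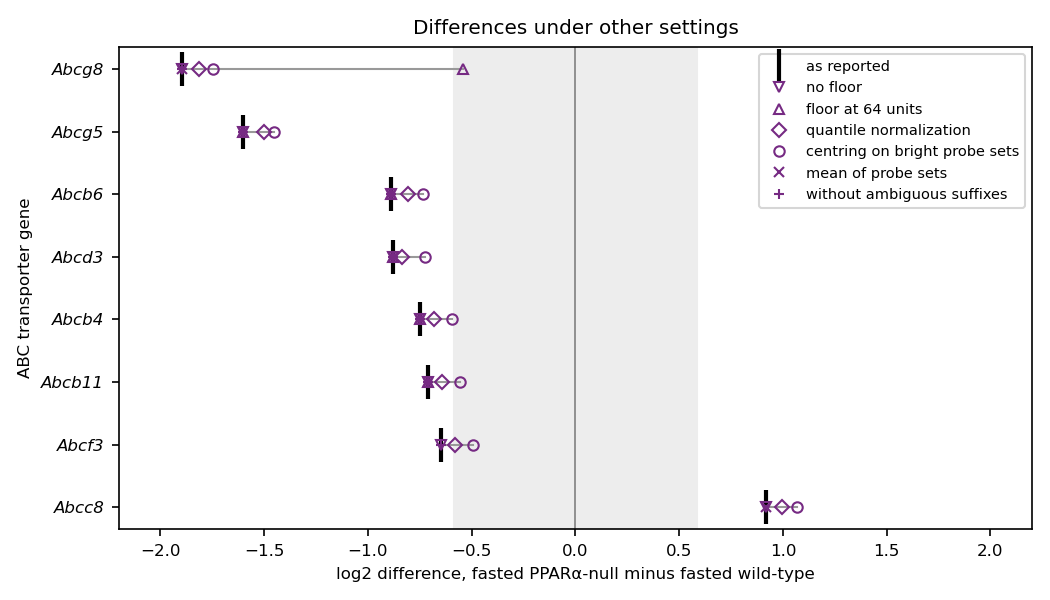
Log2 difference of fasted PPARα-null minus fasted wild-type liver for the 8 members called in that comparison, as reported (black bars) and under 6 other settings (purple symbols, joined by a line). The grey band holds differences under 1.5-fold. Abcg5, Abcb6, Abcd3, Abcb4 and Abcc8 stay outside the band wherever they were measured, Abcb11 and Abcf3 enter it with centring, Abcf3 also with quantile normalization, and Abcg8 enters it with the floor at 64 units. Abcg5, Abcb6, Abcd3, Abcb4 and Abcb11 have 1 probe set each and stay above 64 units, so only quantile normalization and centring could move them.

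Stromal and immune markers differed between the pools as well. Stellate cell and fibroblast markers were summed at 848 units in fasted null against 337 units in fasted wild-type liver, and at 784 units in fed null against 442 units in fed wild-type liver, with Col1a1, Des and Lrat under 16 units on all arrays. Of 4 measured markers of this list 3 were higher in null liver in either state. Macrophage markers had 8 of 11 measured genes higher in the fasted and 0 in the fed comparison of genotypes. Over all measured genes 8.58% were higher in the fasted and 2.38% in the fed comparison. Cd68 was under 16 units on all arrays. Cholangiocyte keratins and Epcam were under 16 units on all arrays. The part of these cells in the lower values of Abcg5, Abcg8 and Abcb4, which held in both states, was not tested.

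The members not described singly were 8 measured genes that stayed between 11.6 and 55.7 units, with no difference above 0.56, and 11 genes that stayed between 5.62 and 13.4 units and were not measured. A further 14 genes of the family in the RefSeq gene table were not analysed here.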

How the data were processed

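The authors labelled pooled liver RNA, hybridized it to Affymetrix MOE430A arrays and computed the deposited intensity of each probe set with GCRMA (the submitters' processing notes name version 2.20). GCRMA corrects the background from probe sequence, normalizes quantiles between arrays and summarizes probes, and it presses dim values together. The values are on a linear scale. No source used here says which arrays entered the normalization, and scanner files were not used. The sources differ on whether each pool held the full 5 mice.

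Here intensities were converted to log2. Of 22690 probe sets, 64 were controls, 691 named several genes and 1606 were unnamed. Symbols of all 65 member probe sets matched RefSeq (GRCm38.p6) with 0 changes. Each gene was taken from its brightest probe set by mean log2 value, a floor was set at a log2 of 4 (16 units), and a gene that never exceeded it was not measured. Genes were called at 1.5-fold (0.58 on the log2 scale). With 1 array per group no test was possible, and the number of arrays limits the precision. The 4 comparisons were the genotypes within a feeding state and the feeding states within a genotype.

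Every measured member that reached 64 units or was called was described with its values. The members and gene lists were chosen with earlier results of these data known. The alternatives were a 2-fold threshold, no floor, a floor at 64 units, quantile normalization, centring on the median of the probe sets that never fell under 64 units, the mean of all probe sets of a gene, and leaving out ambiguous suffixes (_x_at, _s_at, _a_at). The procedure was tested on simulated data, with changes beyond the threshold put into bright genes only. That check does not bear on dim members or on differences close to the threshold. The software was Python 3.11.15, pandas 2.3.3, numpy 2.4.6 and matplotlib 3.10.9.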

Additional observations from a re-analysis of the deposited data

Results flagged for a closer look

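The rule asked for fasting responses of opposite sign, a 1.5-fold change in at least 1 genotype and a 1.5-fold difference between the genotypes. It was met by 2 members, though neither was called in wild-type liver. Abcf3 also had opposite signs, at -0.35 in null and 0.25 in wild-type liver, and was called in neither. With 1 array per group the difference was not tested. The fasting response of Abcc8 in null minus that in wild-type liver was 1.09 on the log2 scale, from 0.95 in null and -0.15 in wild-type liver. That of Abcg8 was -0.99, from -0.61 in null and 0.38 in wild-type liver. The null response of Abcg8 was 0.00 with a floor at 64 units, and its call was also lost with quantile normalization and with centring.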

How the results depend on the processing

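With a 2-fold threshold 2 members were called in fasted null against fasted wild-type liver, 1 in the fed comparison of genotypes, 4 for fasting in null and 5 for fasting in wild-type liver, and 1 differed in its response. With a floor at 64 units, which left 14 members measured, these counts were 5, 3, 5 and 7, and 2 for the response. The alternatives for the difference in response were chosen after seeing the data. Of 384 single values under another setting, 371 kept their side of 1.5-fold, 11 no longer passed it, 2 came to pass it and 0 changed sign as a called value. Many of these values could not change. No described member fell under 16 units, so all 68 values without a floor stayed as they were. The counts for fasting without a floor were 9 in each genotype in place of 8. The added calls were Abcb1b in wild-type and Abcd4 in null liver, each with an array under 16 units. Genes with 1 probe set kept their values with the mean of probe sets. After quantile normalization 65 values kept their side and 3 no longer passed it. After centring these counts were 62 and 5, and 1 came to pass it. No paired analysis was possible because each group holds 1 array, and no replicate could be left out for the same reason. Background correction could not be redone. Dim members are limited by the floor.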
